A study of Mus musculus with 12 samples.

Results

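TSEC is an immortalized mouse line labelled as liver sinusoidal endothelial cells (LSEC), and its basal transcriptome was read from the arrays whose treatment label is Media, which are 3 of the 12 Mouse Gene 2.0 ST arrays of the study. The remaining 9 arrays were 3 each of TSEC given 0.66 mM oleic acid with 0.33 mM palmitic acid (FFA), 30 μM INT-767, which activates FXR and TGR5, receptors for bile acids, or both together (FFA+INT-767). The labels give a treatment time of 8 hours, the methods give another time and another oleic acid dose, and which applies is not known. All 4 groups were the same line, plated in culture medium with serum and an endothelial growth supplement. In the study's fatty acid cultures this medium was exchanged after adherence for one with fatty-acid-free albumin, and whether the Media wells were exchanged too is not given in the sources used here. A vehicle for the Media arrays is not given in the sources used here. The line stands for 1 immortalized population without hepatocytes, stellate cells, flow or matrix. The labels call the arrays biological replicates and the methods call them triplicate wells, so the spread behind each p-value is that between these 3 arrays and may be technical. No treatment effect is described here. The arrays of the other groups serve only as samples in which a spread seen among the Media arrays can be measured again.

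LSEC line the sinusoids of the liver as a thin, fenestrated endothelium without an organized basement membrane. They clear macromolecules from blood through scavenger and mannose receptors, present antigen, and control leukocyte entry and the quiescence of the neighbouring stellate cells. VE-cadherin (Cdh5), PECAM-1 (Pecam1) and the VEGF receptors mark endothelium in general, and the stabilins, Lyve1, Clec4g and Fcgr2b mark its sinusoidal form in liver. Much of this sinusoidal program is known to be lost when the cells are cultured, and immortalized lines can depart from their tissue of origin further.

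The values are log2 expression per transcript cluster, and a gene is represented by its cluster of highest Media mean among those that carry its symbol alone. The table held 26076 transcripts, of which 14318 carried 1 gene symbol for 13557 genes, 1396 carried several symbols and 10362 carried none. Each gene's Media values were tested against 4.5, the level at which the study counts a gene as present, by limma's moderated test with Benjamini-Hochberg adjustment over all transcripts. Of the 13557 genes, 10513 (77.5%) were called above 4.5 at an adjusted p under 0.05, 194 (1.43%) were called below it and 2850 were called neither. The median of the gene means was 7.03, and the means ran from 3.67 to 13.54. Values are given below as the 3 Media arrays in the order of replicates 1, 2 and 3, then as mean ± SD with n = 3. A position within an array reflects probe affinity as well as RNA, so levels are not compared between single genes, and the median of a list stands beside that of all genes only as a description.

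A row exists only for a transcript over 4.5 in at least 1 of the 12 arrays, so a gene could be called below 4.5 in Media only if another array, or 1 Media array, had exceeded it. Of 21896 protein-coding genes in RefSeq, 12373 (56.5%) had a row of their own. Genes that nearly all cells use, such as Trp53 and Eno1, were among those without such a row, so a missing row was not read as missing expression. Such genes are named only as having no row carrying their symbol alone. Olfactory receptors, a family looked at after the values were seen, were set beside the calls near the level as a description. Their rows had passed the same filter, so their share called is not a background rate. Of their 357 rows, 78 (21.8%) were called above 4.5. The median of the family was 4.5, only 6 rows had a mean over 6, and the highest mean was 7.50. Calls on genes with a mean between 4.5 and 6 therefore lie in a range that this family also reached. Means from 6 to 7.50 lie in a range that few of its rows reached. The highest mean among vomeronasal receptors was 11.87, so neither 6 nor 7.50 is a bound on background.

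**Figure D1:**
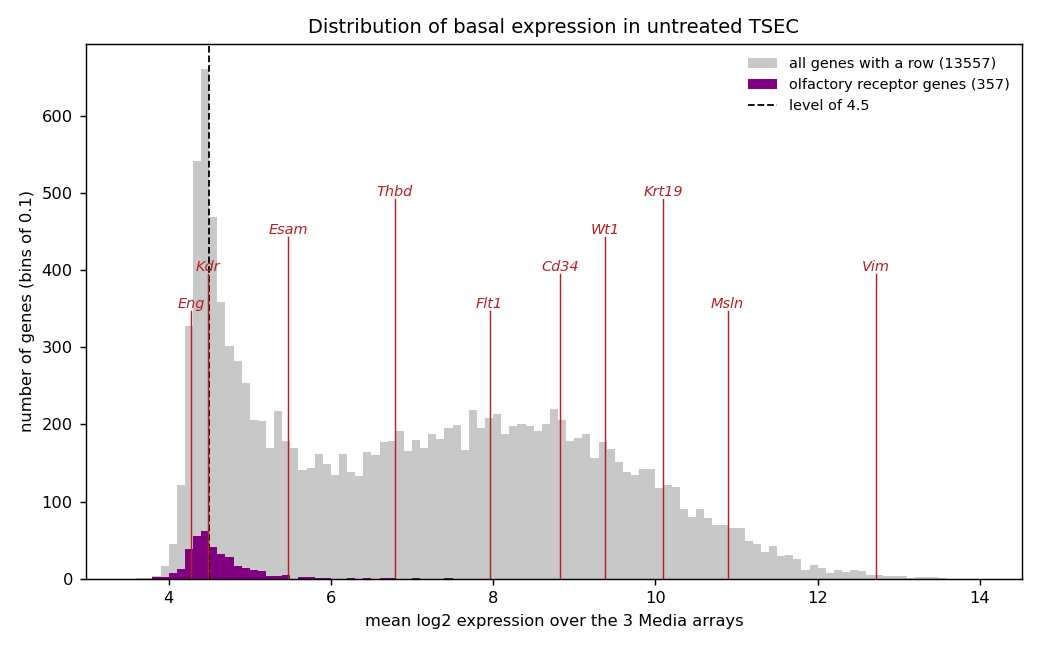
Histogram of the mean log2 expression over the 3 Media arrays for 13557 genes (gray) and for 357 olfactory receptor genes (purple), in bins of 0.1, with 4.5 as a dashed line. Red lines place 10 marker genes, from Eng at 4.28 and Kdr at 4.48, on the level, to Vim at 12.72, at the upper end.

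The Media arrays had medians of 5.87, 5.82 and 5.77 over all transcripts, within the 5.76 to 5.87 of the 12 arrays, and each pair of them had a Pearson correlation of 0.978 to 0.980 across transcripts, which are not independent replicates. They were not equal in every gene. Media replicate 2 was the lowest in 32 of 44 matrix genes, 23 of 30 growth factor receptor genes and 20 of 26 cholesterol genes, beside 4485 of all 13557 genes. Replicate 1 was the highest in 33 of the 44 matrix genes and in 20 of 24 mesenchymal genes, beside 4390 of all genes. The genes of largest spread are described at the end.

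Of the 3 markers that name the cell type, only Flt1 had a row of its own. Neither Cdh5 nor Pecam1 had a row carrying that symbol alone, and they are not analysed here. Flt1, the VEGF receptor that also circulates as a soluble decoy, read 8.08, 7.55 and 8.24 on the 3 arrays. All its values lay far over 4.5, with a mean of 7.96 ± 0.36 (adjusted p = 1.5e-05). Kdr, the main signaling receptor for VEGF-A, read 4.91, 4.17 and 4.36, on both sides of the level, and was not called (adjusted p = 0.93).

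Of 46 genes on the pan-endothelial list, 21 had a row (45.7%, beside 56.5% of all protein-coding genes), and 12 of these were called above 4.5, 9 neither and 0 below. The share called was 57.1% and the median level 5.19, against 77.5% and 7.03 over all genes. The called members of highest mean included Flt1, given above, and genes that many other cells express too. Tm4sf1, a tetraspanin-like membrane protein, read 10.74, 10.59 and 10.58, and Ets2, an ETS transcription factor, read 9.49, 9.75 and 10.37. The ETS factors Elk3 and Ets1 had means of 7.56 ± 0.33 and 7.51 ± 0.06, and Calcrl, the receptor subunit for adrenomedullin and CGRP, had 7.75 ± 0.32. Cd34, a sialomucin of endothelial and progenitor cells, read 10.20, 6.96 and 9.31. It was over 4.5 on every array (adjusted p = 0.002), but replicate 2 lay far under the other two.

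Other members of the list sat nearer the level. Esam, an endothelial tight junction molecule, read 5.99, 4.69 and 5.76, and its call was lost without replicate 1 or without replicate 3. Egfl7, a secreted endothelial factor, had a mean of 5.26 ± 0.13, Gata2, a transcription factor of endothelium and blood, 5.24 ± 0.05, Mcam, the surface protein CD146, 5.19 ± 0.25, and Adgrf5, an adhesion receptor, 4.99 ± 0.15. These 5 means lay in the range that olfactory receptors reached. Eng, the endoglin co-receptor for BMP9 and TGF-β, read 4.06, 4.25 and 4.53 and was not called (adjusted p = 0.17). Nos3, the endothelial nitric oxide synthase, read 4.41, 4.48 and 4.36, under the level on every array, and was not called below it (adjusted p = 0.45). The transcription factors Fli1 (4.76 ± 0.35) and Sox17 (4.76 ± 0.15) and the phosphatase Ptprb (4.90 ± 0.67) were not called either. Tek, Tie1, Vwf, Emcn, Erg, Sox18, Cldn5 and Plvap had no row carrying those symbols alone. The call of Ptprb changed to above without replicate 2. At a level of 5 in place of 4.5, 7 members of the list were called above it.

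The sinusoidal list was similar in outline. Of 35 genes, 16 had a row, 10 were called above 4.5, 6 neither and 0 below, and the median level was 6.05. The share called was 62.5%, beside 77.5% of all genes. The scavenger receptors Stab1 and Stab2, Lyve1, the lectin Clec4g and the Fc receptor Fcgr2b had no row carrying those symbols alone. Mrc1, the mannose receptor that LSEC use to take up glycoproteins, read 4.14, 4.56 and 4.27 (adjusted p = 0.24). Cd36, a scavenger receptor and fatty acid carrier of sinusoids, read 4.32, 4.24 and 4.39, under 4.5 on all 3 arrays yet not called below it (adjusted p = 0.13). Gpr182, a chemokine-scavenging receptor of sinusoidal and lymphatic endothelium, read 4.25, 4.34 and 4.19 (adjusted p = 0.067).

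The called members of this list included the transcription factors Gata4, Maf, Meis2 and Tcf7l1. Gata4, which directs sinusoidal differentiation in the mouse liver and is also made by other liver-adjacent mesoderm, read 6.73, 6.64 and 6.86, with an adjusted p of 1.1e-05 and little spread. Maf read 8.88, 7.62 and 8.47, Meis2 10.88, 10.79 and 10.69 and Tcf7l1 8.11, 7.59 and 7.67, all over 7 on every array. Plpp3, a lipid phosphatase, had a mean of 9.73 ± 0.31 and Ehd3, an endocytic ATPase of fenestrated endothelium, 8.04 ± 0.41. Thrombomodulin (Thbd) read 7.78, 5.75 and 6.84 and Fabp4 read 7.63, 6.42 and 6.05, and both were highest on replicate 1. F8, the coagulation factor that LSEC make in the liver, had a mean of 5.34 ± 0.24, and Flt4, the VEGF-C receptor, 5.18 ± 0.43, with a call that was lost without replicate 1 or 3.

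Markers of other cell types were read in the same way. Of 31 mesenchymal and stellate genes, 24 had a row, and 17 of these (70.8%) were called above 4.5 and 1 below. Over all genes 77.5% were called above and 1.43% below. The list had a median of 6.51 and a median SD of 0.71, against 7.03 and 0.16 over all genes. Vim, the mesenchymal intermediate filament that endothelial cells also make, had a mean of 12.72 ± 0.24. N-cadherin (Cdh2) read 11.79, 11.07 and 11.56 and the transition factor Snai2 read 10.67, 10.03 and 10.41. Smooth muscle actin (Acta2) read 11.52, 9.13 and 9.24 and collagen I (Col1a1) 10.53, 9.28 and 8.64, each over 8 on every array and highest on replicate 1. The PDGF receptor Pdgfrb read 9.06, 6.65 and 6.97. Desmin (Des) had a mean of 5.68 ± 0.92, and the stellate retinol enzyme Lrat had no row carrying its symbol alone. Gfap, which marks quiescent stellate cells, read 4.22, 4.20 and 4.20 and was called below 4.5 (adjusted p = 0.031), a call lost without any of the replicates. Against a level of 6, 10 members were called above.

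Of 33 hepatocyte genes listed, 12 had a row, and 4 of these (33.3%) were called above 4.5 and 2 below, with a median of 4.60. Over all genes 77.5% were called above and 1.43% below. Albumin (Alb) read 4.06, 4.18 and 4.35 and transthyretin (Ttr) 3.98, 4.31 and 4.19, and both were called below 4.5 (adjusted p = 0.047 and 0.037). The call of Alb was lost without replicate 1 or 2, and that of Ttr without any of the replicates. The 4 members called above were fetuin-A (Ahsg), which read 9.93, 8.92 and 11.30, the urea cycle lyase Asl with 6.96 ± 0.06, and the apolipoproteins Apoa1 with 6.22 ± 1.23 and Apoa2 with 5.41 ± 0.18. Of 28 leukocyte genes only 6 had a row, and 2 of these (33.3%) were called above 4.5. They were Cd14 (6.71 ± 0.31) and Cd68 (6.31 ± 0.04), which non-immune cells can express. The pan-leukocyte gene Ptprc and the macrophage gene Adgre1 had no row carrying those symbols alone.

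Simple-epithelial keratins were called above 4.5 in part. Krt8 read 11.02, 11.70 and 11.12, its partner Krt18 10.83, 11.67 and 11.23 and the biliary and mesothelial keratin Krt19 10.21, 10.18 and 9.89, all over 9 on every array. Sox9 had a mean of 9.63 ± 0.28 and E-cadherin (Cdh1) 6.41 ± 0.75. Of the 15 genes on the same list 8 had a row, and 5 of these (62.5%) were called above 4.5, beside 77.5% of all genes. The epithelial adhesion gene Epcam (4.59 ± 0.23) and the keratin Krt7 (4.27 ± 0.15) were not called.

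A list of 32 mesothelial genes was written after the values had been seen, so its counts are a description that supports nothing. Mesothelium is the keratin-bearing mesodermal sheet that covers the liver and other organs. Of the list, 26 had a row, and 24 of these (92.3%) were called above 4.5 and 0 below, beside 77.5% and 1.43% of all genes. The means had a median of 9.66 and ran from 4.27 to 12.13, and 9 of the 26 also stand on another list. Mesothelin (Msln) read 10.63, 10.90 and 11.14, and the transcription factor Wt1, which marks mesothelium and its descendants, read 9.53, 8.84 and 9.76. The uroplakins Upk3b and Upk1b read 10.99, 8.98 and 10.72 and 10.63, 8.88 and 10.25. Gpm6a, a membrane glycoprotein, read 12.08, 10.79 and 12.02, Gata6 11.42, 10.91 and 11.42 and the zinc finger factor Bnc1 9.26, 8.06 and 9.53. All of these were over 8 on each of the 3 arrays, and apart from Msln each was lowest on replicate 2. They were picked from the called members. Of the 26 with a row, 2 were called neither above nor below, and the lowest mean, 4.27, was that of the keratin Krt7. Muc16 and Calb2 had no row carrying those symbols alone. Set against the cell type label, Flt1 was the only measured gene of the 3 that name it. Across both endothelial lists, 37 members had a row. Of these, 22 were called above 4.5, beside 77.5% of all genes, and 15 of the 22 had a mean over 6. The 22 included Flt1, Gata4, Maf, Meis2, Plpp3 and Ehd3. The other 15, among them Kdr, Eng, Nos3, Mrc1, Cd36 and Gpr182, were called neither above nor below. Of the 37, 0 were called below, beside 1.43% of all genes. These values do not settle the label, and the cells are called TSEC or the line below.

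**Figure D2:**
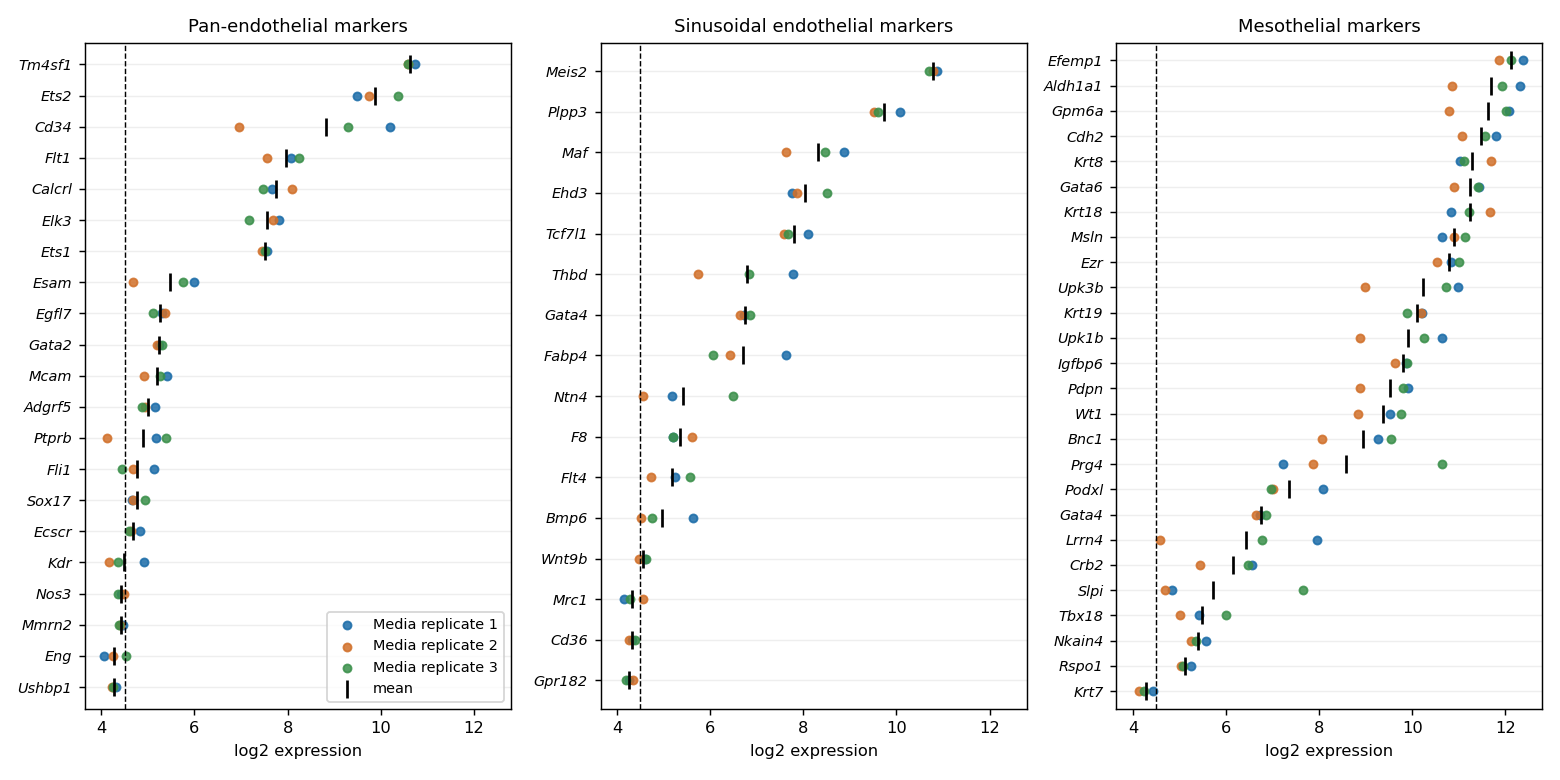
Log2 expression on each Media array (points) and their mean (bar) for the genes with a row among pan-endothelial, sinusoidal and mesothelial markers, with 4.5 as a dashed line. The endothelial panels spread from Gpr182 and Ushbp1 at 4.26 to Meis2 at 10.79. The mesothelial panel, whose list was chosen after the values were seen, spreads from 4.27 to 12.13.

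**Figure D3:**
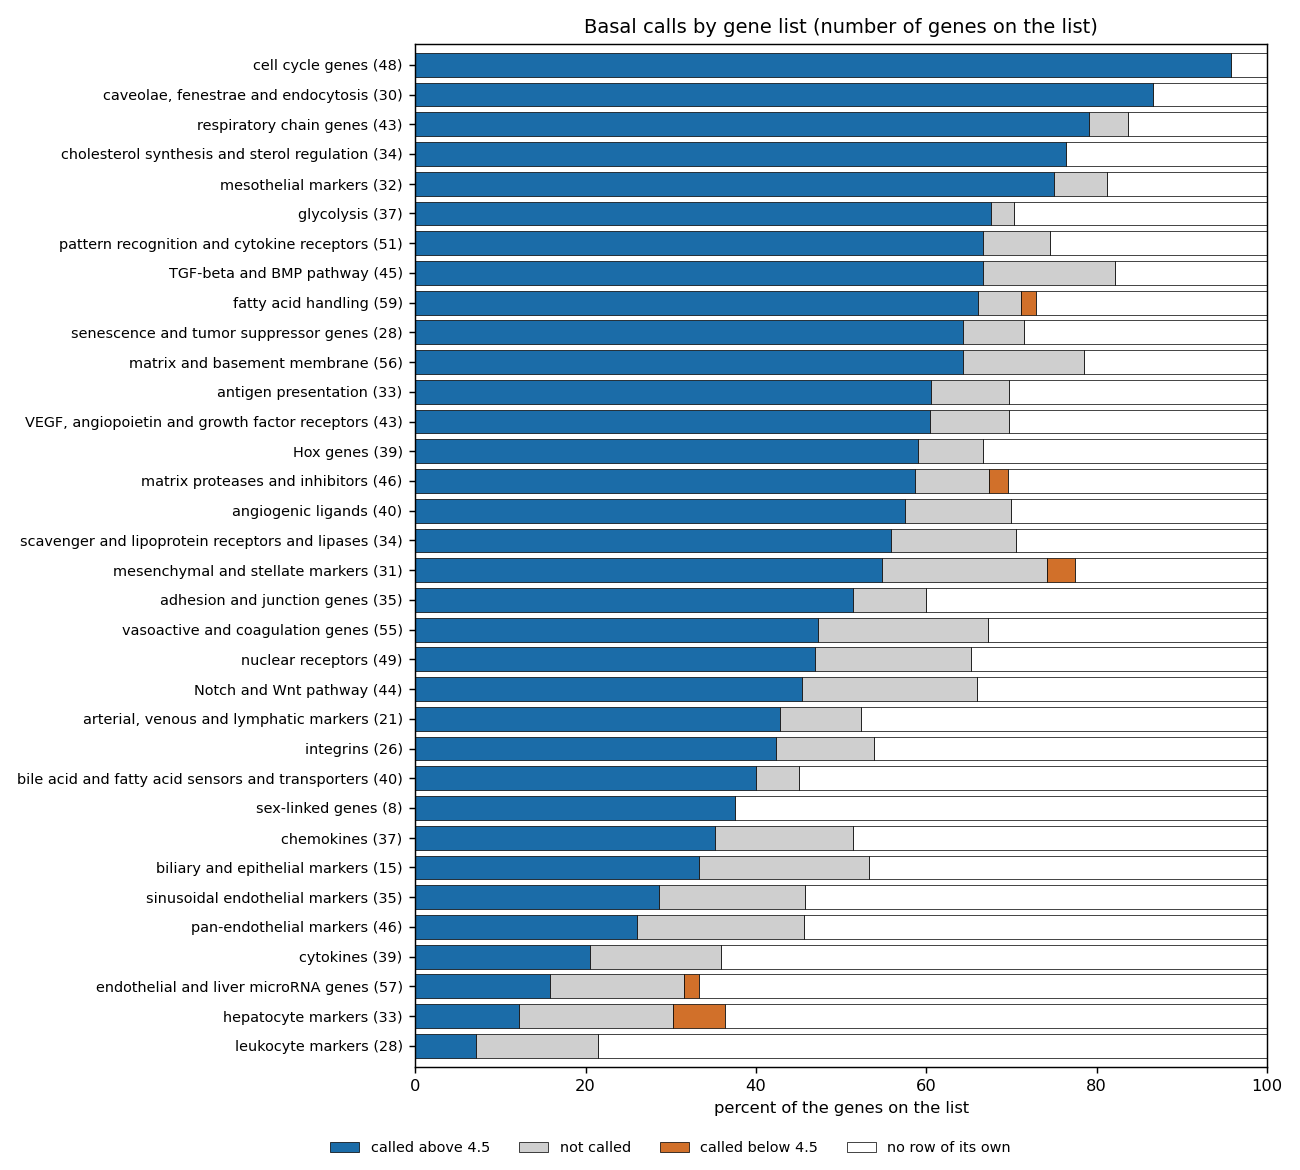
Percent of the genes on each of 34 lists that were called above 4.5 (blue), not called (gray), called below (orange) or had no row of their own (white), with the number of genes on the list in parentheses. Cell cycle genes stood at 1 end, with 46 of 48 called above, and leukocyte genes at the other, with 2 of 28.

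Among arterial, venous and lymphatic genes, 9 of 11 with a row (81.8%) were called above 4.5, beside 77.5% of all genes. Efnb2, the arterial ephrin, read 10.25, 9.87 and 10.05, and its venous receptor Ephb4 read 6.70, 5.85 and 5.60. Nr2f2, the venous factor COUP-TFII, read 7.32, 7.29 and 7.38. The semaphorin and VEGF co-receptors Nrp1 and Nrp2 had means of 9.34 ± 0.22 and 8.32 ± 0.56, and podoplanin (Pdpn), a lymphatic and mesothelial surface protein, 9.53 ± 0.56. The arterial Notch target Hey1 was not called (4.54 ± 0.23).

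Of the growth factor receptors, 26 of 30 (86.7%) were called above 4.5, beside 77.5% of all genes, with a median of 7.57. Axl, the receptor for Gas6, read 11.14, 11.39 and 11.07, and Egfr read 10.94, 10.18 and 10.43. The collagen receptor Ddr2 had a mean of 10.26 ± 0.07 and Met, the hepatocyte growth factor receptor, 10.19 ± 0.21. Beside Kdr, Fgfr3 (4.28 ± 0.14), Ror2 (4.37 ± 0.23) and Tyro3 (4.44 ± 0.06) were not called. Of the ligands, 23 of 28 (82.1%) were called, with a median of 6.6. Stem cell factor (Kitl) read 10.91, 11.15 and 11.21, Pdgfc 10.58, 9.66 and 10.84 and Gas6 10.54, 8.88 and 10.09, so both members of the Gas6 and Axl pair were over 8 on every array. Vegfa read 10.20, 8.63 and 8.64, highest on replicate 1. Angpt2, a ligand of Tek stored by activated endothelium, had a mean of 4.69 ± 0.10 and was not called, nor was Pgf, the placental growth factor (4.55 ± 0.23).

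In the TGF-β and BMP pathway, 30 of 37 members (81.1%, beside 77.5% of all genes) were called above 4.5, with a median of 8.14. The BMP receptors Bmpr2 and Bmpr1a had means of 10.93 ± 0.02 and 10.26 ± 0.16, the TGF-β receptor Tgfbr1 9.54 ± 0.34, and the ligand Tgfb1 9.97 ± 0.13. The BMP target genes Id2 and Id3 had means of 11.50 ± 0.34 and 9.68 ± 0.25. On the endothelial arm of the pathway, Eng was not called, as given above, and Acvrl1 had no row carrying its symbol alone. Bmp6, the LSEC ligand that sets hepcidin in hepatocytes, read 5.63, 4.52 and 4.76 and was not called (adjusted p = 0.13).

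Of the Notch and Wnt genes, 20 of 29 (69.0%, beside 77.5% of all genes) were called above 4.5, with a median of 6.07. Of the 4 Notch receptors, Notch2 read 9.01, 8.71 and 8.60 and was called, while Notch1 (4.62 ± 0.05), Notch3 (4.71 ± 0.80) and Notch4 (4.73 ± 0.16), the last of which is largely endothelial, were not. The Wnt effector β-catenin (Ctnnb1) had a mean of 11.29 ± 0.05, the co-receptor Lrp6 10.45 ± 0.03, and the R-spondin receptor Lgr4 10.24 ± 0.24. Wnt9b, a Wnt of hepatic venous and sinusoidal endothelium, read 4.60, 4.48 and 4.62 and was not called (adjusted p = 0.55). Wnt2 and Rspo3 had no row carrying those symbols alone.

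Nuclear receptors were looked at because the study treats the line with fatty acids and with a bile acid receptor agonist. Of 49 genes 32 had a row, and 23 of these (71.9%, beside 77.5% of all genes) were called above 4.5. The median was 6.22. The fatty acid receptor Pparg read 10.72, 10.96 and 11.33, the glucocorticoid receptor Nr3c1 9.48, 9.58 and 9.79 and the fatty acid receptor Ppard 8.25, 8.03 and 8.05. Ppara, the fatty acid receptor of oxidative tissues, read 4.65, 4.53 and 4.63, just over the level on each array and not called (adjusted p = 0.34). Rxra, the shared partner of these fatty acid receptors, had a mean of 7.76 ± 0.21, and the vitamin D receptor Vdr read 9.11, 7.95 and 9.04. Nr4a1, an immediate-early gene, read 6.68, 6.93 and 9.46, with replicate 3 apart from the other two.

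FXR (Nr1h4), the bile acid receptor that INT-767 activates, read 6.39, 5.74 and 5.58. It was over 4.5 on all 3 arrays, with a mean of 5.90 ± 0.43 and an adjusted p of 0.0012, and was called at a level of 5 but not at 6. The oxysterol receptor Nr1h3 had a mean of 5.90 ± 0.35. TGR5 (Gpbar1), the other target of INT-767, the FXR target Nr0b2 and the hepatocyte bile acid carrier Slc10a1 had no row carrying those symbols alone. S1pr2, a sphingosine phosphate receptor that conjugated bile acids also bind, read 7.72, 7.24 and 7.23. The fatty acid receptor Ffar4 (5.09 ± 0.30) and the lactate receptor Hcar1 (5.20 ± 0.33) were called close to the level. Among transporters, the prostaglandin carrier Slco2a1 read 9.43, 9.46 and 10.31, and the efflux pumps Abcc1 and Abcg2 had means of 9.29 ± 0.11 and 8.36 ± 0.43. In all, 16 of the 18 sensors and transporters with a row (88.9%), of 40 listed, were called above 4.5, beside 77.5% of all genes.

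**Figure D4:**
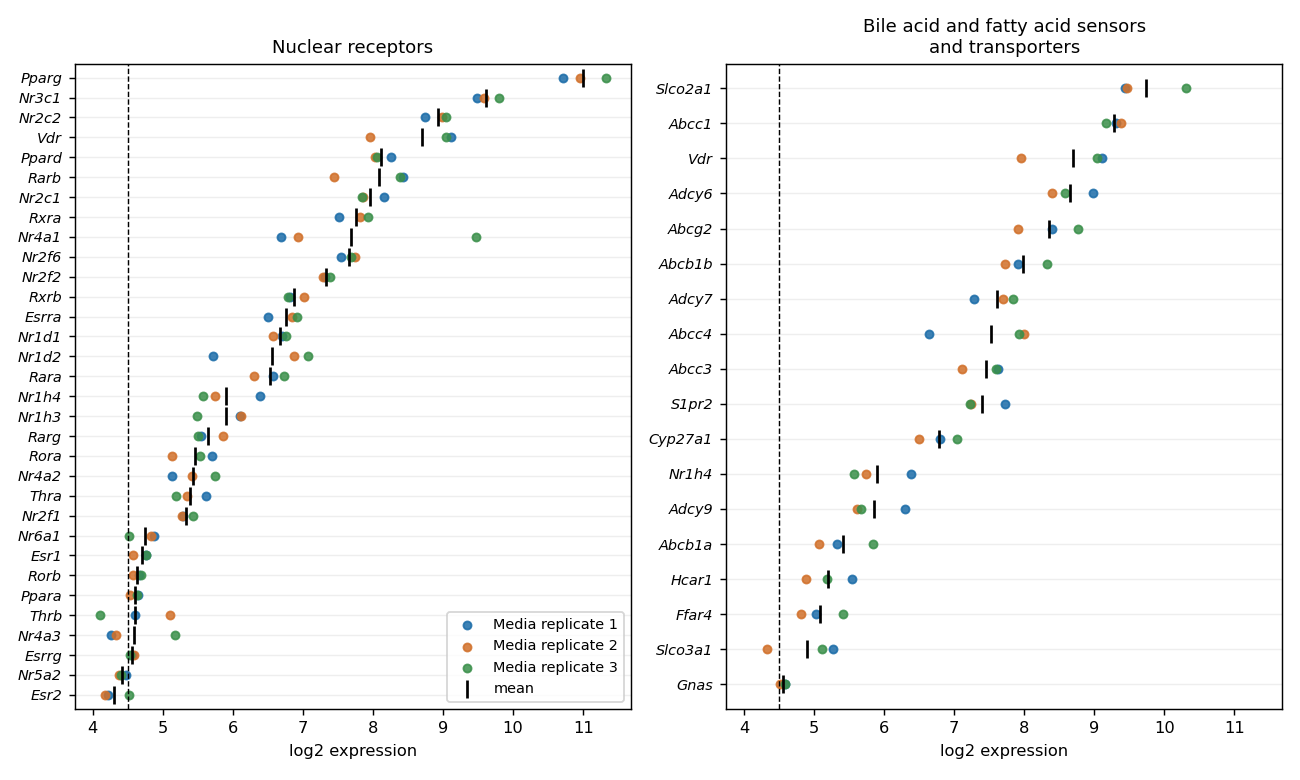
Log2 expression on each Media array (points) and their mean (bar) for 32 nuclear receptors and for 18 sensors and transporters of bile acids and fatty acids, with 4.5 as a dashed line. Pparg lies between 10.72 and 11.33 and Nr1h4 between 5.58 and 6.39, while Ppara lies at 4.61, next to the level.

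Innate receptors and cytokine receptors were called in 34 of 38 genes (89.5%, beside 77.5% of all genes), with a median of 8.47. Ly96, the co-receptor that lets TLR4 bind lipopolysaccharide, read 10.52, 10.43 and 11.02, and Tlr4 itself read 6.63, 6.79 and 7.63. Tlr3, which senses double-stranded RNA, read 8.58, 7.91 and 8.87, whereas Tlr7 (4.40 ± 0.06) and Tlr9 (4.35 ± 0.11) were not called. The interferon receptor chains Ifngr1, Ifngr2, Ifnar1 and Ifnar2 all had means over 9, and the shared receptor Il6st had 10.64 ± 0.41.

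Of the chemokines, 13 of 19 with a row (68.4%), of 37 listed, were called above 4.5, beside 77.5% of all genes. The median SD of the 19 was 0.47. Ccl5, which recruits T cells and monocytes, read 8.98, 9.15 and 10.60. Ccl2, the monocyte chemokine that the study followed, read 9.19, 7.0 and 10.63, highest on replicate 3 and lowest on replicate 2. Cxcl13, the B cell chemokine, read 11.28, 6.58 and 8.33, and Cxcl12 read 10.05, 7.39 and 7.71, both highest on replicate 1. The interferon-induced Cxcl10 read 7.81, 7.11 and 9.52. The membrane-bound chemokines Cxcl16 and Cx3cl1 had means of 7.05 ± 0.47 and 6.63 ± 0.31. Cxcl1, Cxcl2 and Cxcl9 had no row carrying those symbols alone.

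Of the cytokines, 8 of 14 with a row (57.1%), of 39 listed, were called above 4.5, beside 77.5% of all genes. Mif had a mean of 10.09 ± 0.29 and the galectin Lgals9 9.71 ± 0.62. Csf1, the macrophage growth factor, read 9.17, 7.31 and 8.91, and the alarmin Il33 read 8.43, 7.52 and 7.87. Il10, the suppressive cytokine, read 4.55, 3.95 and 3.92 and was not called (adjusted p = 0.096), though it was called below the level without replicate 1. Il1b, Il6 and Tnf had no row carrying those symbols alone.

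Among adhesion and junction genes, 18 of 21 (85.7%) were called above 4.5, beside 77.5% of all genes. Vcam1, which binds monocytes and lymphocytes, read 9.65, 7.59 and 9.17, and Icam1 read 6.40, 5.55 and 5.87, both lowest on replicate 2. The junction genes F11r (11.17 ± 0.26) and Tjp1 (9.91 ± 0.12) and the gap junction gene Gja1 (9.35 ± 0.61) were called. The endothelial selectins Sele and Selp had no row carrying those symbols alone. Of 14 integrins, 11 (78.6%) were called, led by Itgav (10.89 ± 0.16), Itgb1 (10.85 ± 0.21) and the fibronectin receptor chain Itga5 (10.80 ± 0.43).

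The uptake machinery was called throughout, beside 77.5% of all genes. Above 4.5 were 26 of 26 genes of caveolae, fenestrae and endocytosis, at a median of 9.50. Cav1, the coat protein of caveolae, read 10.07, 9.18 and 9.29, clathrin heavy chain (Cltc) had a mean of 11.47 ± 0.13 and the late endosome GTPase Rab7 12.48 ± 0.04. Plvap, the diaphragm protein, had no row carrying its symbol alone. Of 24 scavenger and lipoprotein receptors and lipases, 19 (79.2%) were called. Lipoprotein lipase (Lpl) read 10.70, 10.23 and 11.02, the oxidized LDL receptor Olr1 9.06, 8.88 and 10.11, the remnant receptor Lrp1 10.20, 9.50 and 9.44 and the HDL receptor Scarb1 8.88, 8.60 and 9.19. Gpihbp1, which holds lipoprotein lipase on capillary endothelium, read 4.27, 4.39 and 4.51 and was not called (adjusted p = 0.35).

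Fatty acid genes were called above 4.5 in 39 of 43 members (90.7%, beside 77.5% of all genes), with a median of 8.65. The desaturases Fads2, Fads1 and Scd1 read 12.18, 11.74 and 12.45, 11.85, 11.57 and 11.87 and 11.63, 11.19 and 11.79, respectively. Cpt1a, the gate to mitochondrial oxidation, had a mean of 10.93 ± 0.15 and fatty acid synthase (Fasn) 10.59 ± 0.23. Monoacylglycerol lipase (Mgll) read 4.15, 4.16 and 4.10 and was called below 4.5 (adjusted p = 0.015), a call lost without any of the replicates.

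All 26 cholesterol genes with a row, of 34 listed, were called above 4.5, beside 77.5% of all genes, with a median of 9.01. Squalene synthase (Fdft1) read 11.38, 10.92 and 12.08, Hmgcs1 10.69, 10.07 and 11.63 and the sterol sensor Insig1 10.43, 9.89 and 11.81. The same order recurred across the list, with replicate 3 highest in 25 of 26 genes and replicate 2 lowest in 20.

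Glycolysis was called in 25 of 26 genes (96.2%, beside 77.5% of all genes) with a median of 9.72. Here replicate 1 was highest in 21. Gapdh, Pgk1 and Pkm had means of 12.85 ± 0.17, 12.56 ± 0.11 and 12.24 ± 0.11, and the glucose carrier Slc2a1 read 11.95, 11.25 and 11.18. Respiratory chain genes were called in 34 of 36 (94.4%), with a median of 10.13 and a median SD of 0.10. The genes Atp5g1 (4.76 ± 0.33) and, among fatty acid enzymes, Hadhb (4.70 ± 0.10), which most cells use, were not called, so a missed call was not read as missing expression.

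Matrix genes were called in 36 of 44 (81.8%, beside 77.5% of all genes), with a median of 7.45. Replicate 1 was highest in 33 of the 44. Biglycan (Bgn) read 12.86, 12.52 and 12.10, fibronectin (Fn1) 12.47, 12.16 and 12.08 and the fibulin Efemp1 12.38, 11.87 and 12.13. Sparc had a mean of 11.36 ± 0.28 and nidogen (Nid1), a basement membrane linker, 10.67 ± 0.12. Ccn1, a target of the YAP co-activator, read 10.69, 8.42 and 10.97, with replicate 2 apart. Proteases and their inhibitors were called in 27 of 32 (84.4%). Cathepsin B (Ctsb) had a mean of 11.65 ± 0.14, Timp2 11.23 ± 0.12 and the collagenase activator Mmp14 9.42 ± 0.26. The metalloprotease Adam19 read 4.27, 3.64 and 3.85 and was called below 4.5 (adjusted p = 0.018), a call lost without replicate 2 or 3.

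Of 37 vasoactive and coagulation genes, 26 (70.3%) were called above 4.5, beside 77.5% of all genes. Tissue factor (F3), which starts coagulation and is not made by resting endothelium, read 10.85, 10.02 and 12.05. The thrombin receptor F2r had a mean of 11.58 ± 0.22 and prostacyclin synthase (Ptgis) 9.64 ± 0.49. Endothelin (Edn1) read 7.27, 4.12 and 6.02, with replicate 2 under 4.5, and was not called (adjusted p = 0.11), though it was without that array. For antigen presentation, 20 of 23 genes (87.0%) were called. B2m had a mean of 12.47 ± 0.15 and the class I gene H2-K1 9.13 ± 0.54, a family in which probes of near-identical genes can share signal. The class II gene H2-Ab1 (4.49 ± 0.14) was not called.

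Proliferation genes were called throughout. All 46 cell cycle genes with a row, of 48 listed, were called above 4.5, beside 77.5% of all genes. Their median was 10.22 and their median SD 0.10. Pcna read 12.15, 12.22 and 12.23, Cdk1 11.70, 11.61 and 11.70 and Top2a 11.28, 11.31 and 11.16, and no pair of arrays differed by more than 0.2 in any of the 3. Among 20 senescence and tumor suppressor genes, 18 were called. The Cdkn2a locus, which encodes Ink4a and Arf, read 10.63, 10.40 and 10.23, the cell cycle inhibitor Cdkn1a 10.01, 9.78 and 10.32, and the telomerase RNA Terc 11.41, 11.60 and 11.22. The telomerase enzyme Tert read 4.98, 4.76 and 4.27 and was not called (adjusted p = 0.39). Hox genes, which record position along the body axis, were called in 23 of 26 (88.5%) with a median of 5.49. They were led by Hoxa5 (8.94, 8.89 and 9.51) and Hoxa6 (8.89, 8.69 and 8.66). The Y-linked genes Uty, Kdm5d and Eif2s3y had means of 8.60 ± 0.13, 8.13 ± 0.14 and 7.81 ± 0.25.

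The 10 protein-coding genes of highest signal were 7 mitochondrially encoded genes and 3 nuclear genes. The mitochondrial genes were CYTB (13.52, 13.57 and 13.52), ND4, COX1, ND5, ND1, ND2 and COX3, with means down to 13.17 ± 0.04. The nuclear genes were the elongation factor Eef1a1 (13.07, 13.05 and 13.15), the ribosomal protein Rps6 (13.08, 13.16 and 12.96) and the adaptor Ywhaz (12.94, 12.97 and 13.10). Of the 100 genes of highest signal, 97 were protein-coding and 8 were cytosolic ribosomal proteins. Their median SD was 0.11, and the largest was 0.39.

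The array also carries probe sets for microRNA genes. MicroRNAs pair with messages mainly through bases 2 to 8 of the mature strand, the seed. Of 57 listed microRNA genes of endothelium and liver 19 had a row, 9 of these (47.4%) were called above 4.5 and 1 below, beside 48.8% of all 215 microRNA genes, and 0 of the 19 had a mean over 6. Mir126a, the microRNA gene of endothelium, had no row carrying its symbol alone, and Mir34a read 4.08, 4.04 and 4.38 and was called below 4.5 (adjusted p = 0.042), a call lost without replicate 1 or 2. Of the called genes, the 7 whose strands are shown read 5.70, 5.69 and 6.45 for Mir99b, 5.58, 6.15 and 5.97 for Mir19a, 5.80, 5.80 and 5.80 for Mir31, 5.70, 5.78 and 5.89 for Mir18, 5.44, 5.49 and 5.61 for Mir23a, 5.44, 5.54 and 5.52 for Mir29b-1 and 5.30, 5.54 and 5.09 for Mir29a. Their mature strands, from RefSeq (GRCm38.p6), are shown because the seed fixes which of them could act on the same messages, with the seed in capitals:
miR-29a-3p: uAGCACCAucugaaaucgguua
miR-29b-3p: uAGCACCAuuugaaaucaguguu
miR-23a-3p: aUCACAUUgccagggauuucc
miR-19a-3p: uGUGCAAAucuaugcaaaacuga
miR-18a-5p: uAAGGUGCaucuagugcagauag
miR-31-5p: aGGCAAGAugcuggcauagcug
miR-99b-5p: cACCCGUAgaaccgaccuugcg
The strands miR-29a-3p and miR-29b-3p share the seed AGCACCA, and no other pair of the strands shown shares a seed. Mir23b was called too, with a mean of 5.35. Its 3p strand was missing from the reference used, so its seed was not compared with that of miR-23a-3p. Mir122 had a mean of 4.98, and was called above 4.5 without replicate 3 but not without replicate 1 or 2. The miR-29 family is known to repress collagen messages. Probe sets on microRNA genes of these arrays can also read the precursor or host transcript, so the values say nothing of mature strands.

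The genes that varied most among the Media arrays formed a pattern of their own. The median SD was 0.17 over the 11838 genes with a Media mean over 4.5, and the 50 genes of largest SD had a median of 1.63. These 50 were chosen by their spread, which is therefore a description. Apln, the ligand of the apelin receptor, read 7.91, 3.80 and 3.67, over the level on replicate 1 alone, and was called below it without that array. Cxcl13 read 11.28, 6.58 and 8.33, and decorin (Dcn), a matrix proteoglycan, read 10.12, 5.81 and 8.83. The calls of Dcn and of Pdgfra above 4.5 were lost without replicate 3. Islr read 8.21, 4.45 and 4.41, with replicate 1 apart, while Fam180a (9.07, 5.12 and 7.92) and 9930111J21Rik2 (8.53, 4.83 and 7.93) were low on replicate 2 alone. Pdgfra, the PDGF receptor of mesenchymal cells, read 9.56, 5.63 and 7.32, and Cemip, a hyaluronan-degrading protein, 7.55, 3.99 and 4.39. Ccl2 was given above. Prg4, the lubricin of joint and serosal surfaces, read 7.23, 7.86 and 10.65, highest on replicate 3. Of the 50, replicate 1 was highest in 37, replicate 3 in 13 and replicate 2 in 0, and replicate 2 was lowest in 40.

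The same replicate numbers were then compared in the arrays that the choice had not used. Same-numbered arrays went together across the groups (correlation of deviations 0.197 to 0.535), so the treated arrays were not independent of the Media arrays. The counts below describe this pairing in the chosen genes and are not an independent check. A model of treatment and replicate number was fitted on the 9 treated arrays, and the replicate number was tested by limma's moderated F test. Of the 50 genes, 39 (78%) had an adjusted p under 0.05, against 1953 (16.5%) of the 11838 genes. At an unadjusted p under 0.05 the counts were 47 of 50 and 4816 of 11838. The treated arrays with the number of the highest Media array were again the highest, as means over the 3 treated groups, in 45 of the 50 genes (90%), against 7000 (59.1%) of the 11838. Dcn had treated means of 9.21, 5.30 and 8.36 for replicates 1, 2 and 3 (adjusted p = 0.0044), Pdgfra 9.06, 5.89 and 6.46 (adjusted p = 0.01) and Prg4 7.44, 8.33 and 10.55 (adjusted p = 0.0059). Cemip, with 4.59, 4.09 and 4.06, did not pass (adjusted p = 0.16), nor did Fam180a (adjusted p = 0.086). With any of the 3 treated groups left out, 0 of the 50 and 0 of all genes passed the adjusted threshold, although 39 to 50 of the 50 passed the unadjusted one.

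The counts differed between lists, and the differences were not tested. The mesothelial list was written after the values had been seen. A replicate number effect in the treated arrays was called in 10 of 24 mesenchymal genes (41.7%), 20 of 44 matrix genes (45.5%), 18 of 26 mesothelial genes (69.2%), 7 of 26 cholesterol genes (26.9%), 6 of 46 cell cycle genes (13.0%) and 1 of 36 respiratory chain genes (2.78%), beside 14.7% of all 13557 genes. Among pan-endothelial genes it was called in 6 of 21 (28.6%), Cd34 included, whose treated means were 9.14, 6.23 and 8.61 (adjusted p = 0.011). Of the 24 mesenchymal genes replicate 1 was highest in Media in 20. What the replicate number stands for in the culture or in the processing is not given in the sources used here and was not tested.

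**Figure D5:**
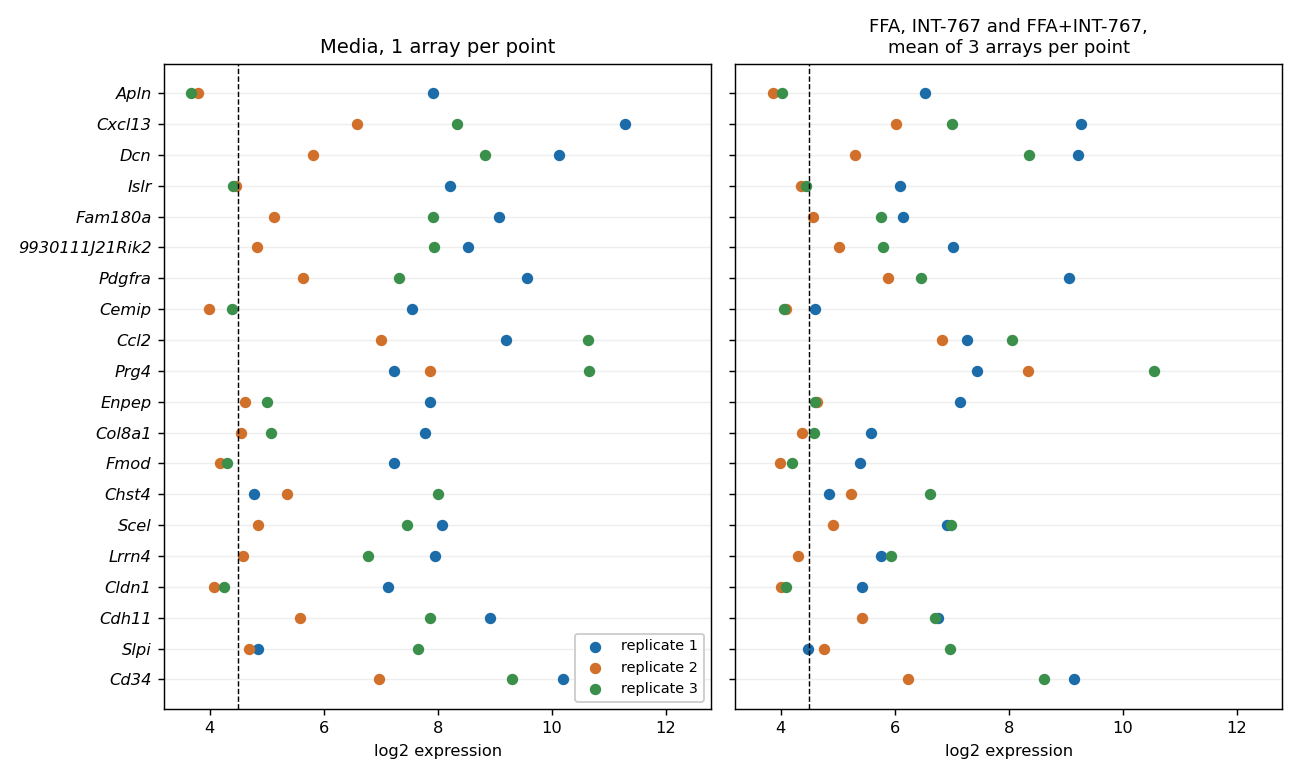
Log2 expression of the 20 genes of largest SD over the Media arrays, on the Media arrays (left) and as the mean of the 3 treated groups by replicate number (right), with 4.5 as a dashed line. The genes were chosen on the left panel, and replicate 2 (orange) is the lowest or close to the lowest for most genes in both panels.

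Of the 50 genes, 36 had a promoter in the RefSeq table, and the 250 bases before the start site were searched for CATTCC, the site of TEAD factors, through which YAP acts, on both strands. It was present in 7 of 36 (19.4%), against 10.4% of 9322 genes with a Media mean over 4.5 and 12.6% of all 27025 promoters of the table, a difference of few promoters that was not tested. Of the other two motifs searched, TATAAA on both strands was present in 7 of 36 as well, against 7.5% of the 9322 genes, and the SRF motif CArG in 1 of 36, against 1.12%. Ankrd1, a known TEAD target, held 2 matches of CATTCC and read 7.0, 5.42 and 8.72 on the Media arrays. Its treated means were 6.22, 5.66 and 5.92 for replicates 1, 2 and 3, and the replicate number did not pass there (adjusted p = 0.17). Cxcl13 held 1 match of CATTCC. Their promoters, at chr19:36119845-36120094 (minus strand) and chr5:95956689-95956938 (plus strand) of GRCm38.p6, are shown 5′ to 3′ on the gene's strand as examples with and without a pair of matches, with the matches in capitals:
Ankrd1: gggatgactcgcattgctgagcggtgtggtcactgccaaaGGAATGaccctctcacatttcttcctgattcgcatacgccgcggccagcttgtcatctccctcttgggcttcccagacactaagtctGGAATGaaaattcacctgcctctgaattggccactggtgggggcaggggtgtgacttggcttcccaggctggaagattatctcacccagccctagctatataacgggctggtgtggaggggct
Cxcl13: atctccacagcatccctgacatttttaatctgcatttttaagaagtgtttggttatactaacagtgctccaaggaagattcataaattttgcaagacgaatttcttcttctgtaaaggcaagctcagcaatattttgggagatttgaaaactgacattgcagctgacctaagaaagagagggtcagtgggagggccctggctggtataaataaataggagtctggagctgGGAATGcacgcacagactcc
A match is a description of the letters, not a site in use.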

How the data were processed

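Gene expression was measured in TSEC on 12 Mouse Gene 2.0 ST arrays, and 3 Media arrays were described. The authors deposited log2 expression values made in Partek 6.6, the methods naming GC-RMA and the submitters' notes RMA, for transcripts over 4.5 in at least 1 array. The number of arrays limits the precision. Transcripts were named from the platform annotation, and 14227 of the 14318 with 1 symbol matched RefSeq by identifier. The genome build of the array annotation is not given in the sources used here. Each Media value minus 4.5 was fitted with an intercept in limma 3.58.1 (R 4.3.3) and tested two-sided by its moderated test, with Benjamini-Hochberg adjustment over 26076 transcripts and a threshold of 0.05. A gene took its transcript of highest Media mean. The replicate number was tested in the 9 treated arrays by limma's moderated F test with treatment as a factor. The scripts were tested on simulated data.

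Members, gene lists and tests were chosen with earlier results of these data known, and the mesothelial list after these values were seen. Of 1297 entries on 34 lists, 835 had a row of their own, 32 stood only on rows of several symbols and 430 had none. Named genes are Flt1 with the absent Cdh5 and Pecam1, the 10 protein-coding genes of highest mean, the 10 of largest SD with a mean over 4.5, and from each list up to 6 called members of highest mean, up to 4 called below, and defining members, of which not all are printed. Others were chosen after their values were seen. In all 18 pairs of same-numbered arrays, deviations from the group means went together (correlation 0.197 to 0.535), so the numbers pair the samples, although the labels give no shared day or batch. Alternatives were other levels, tests, normalizations, gene summaries, a 12-array fit and leaving out each replicate or treated group. Treatment effects and protein measurements were not analysed here.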

Additional observations from a re-analysis of the deposited data

How the results depend on the processing

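No paired analysis was possible because no treatment groups were compared. Genes called above 4.5 numbered 10513, and 9656 to 11115 under the alternatives that kept this level. With the level moved to 5, 9407 genes were called above it, and with 6, 7876. Genes called below numbered 194, but 2491 at a level of 5, 4533 at 6, 300 with an intensity trend and robust prior, 838 with no test, 421 in a fit of all 12 arrays and 68 to 99 when a replicate was left out. At an unadjusted p under 0.05, 259 were below. Pan-endothelial genes called above numbered 12, but 7 at a level of 5 and 7 at a level of 6. At a level of 6, 2 of 4 hepatocyte, 10 of 17 mesenchymal and 6 of 10 sinusoidal genes were called, and the unmoderated test called 9 mesenchymal genes. Of 646 listed genes called above, 57 lost the call at a level of 5, 156 at 6 (68 then called below), 101 with the unmoderated test and 18, 10 and 24 without replicates 1, 2 and 3. The replicate number effect, called for 1987 of all genes and 39 of the 50 most variable, was called for 0 of both when the FFA, INT-767 or FFA+INT-767 group was left out, with 6 arrays in the fit. At an unadjusted p under 0.05 it then held for 40, 39 and 50 of the 50. The Media mean of 28 of 800 genes moved by over 1 SD with the mean of a gene's transcripts, and of 1 each with arrays shifted to the same median or quantile normalized again. Signal near the level and the number of arrays limit the calls.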

Other observations

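Housekeeping families not described above were called nearly throughout in the Media arrays. Of 70 mitochondrial ribosomal protein genes 68 were called above 4.5, of 37 proteasome subunits 35, of 30 aminoacyl-tRNA synthetases 30 and of 59 cytosolic ribosomal protein genes 54. The 7 chaperonin subunits, which fold actin and tubulin, had a median of 10.53, and all 7 were highest on replicate 2 and lowest on replicate 3. Cytosolic ribosomal protein genes were highest on replicate 2 in 36 of 59. Of 557 lncRNA genes 196 (35.2%) were called above 4.5, beside 77.5% of all genes, and of 73 snoRNA genes 66 (90.4%). The families were chosen after the values were seen, and none of these counts was tested.

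Vomeronasal receptors had 155 rows, of which 41 (26.5%) were called above 4.5 and 3 had a mean over 6, with the highest at 11.87. These rows had passed the same filter as all others.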
